A study of Mus musculus with 10 samples.

Results

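The expression of 10 genes of the Wnt pathway was followed in mouse embryonic fibroblasts (MEFs) during reprogramming towards pluripotency. The genes were the Frizzled receptors Fzd1, Fzd2 and Fzd7, the receptor tyrosine kinases Ror1 and Ror2, the ligand Wnt5a, and the secreted antagonists Sfrp1, Sfrp2, Dkk2 and Dkk3. They were chosen by gene symbol, with earlier results of these data known, and all 10 were found among the 48476 genes of the count table. The MEFs came from embryos at embryonic day 13.5 of the strain CBA/CaJ X C57BL/6J and carried an Oct4-GFP reporter. All cells received Oct4, Klf4 and Sox2 (OKS) on retroviruses made in PlatE packaging cells. MEFs were kept in DMEM with serum and were given iCD1 medium after infection. Whether the day 0 cells had yet received iCD1 is not given in the sources used. A change from day 0 and a change of medium therefore cannot be told apart. In 1 arm the cells also received FoxO6, a forkhead transcription factor (OKS + FoxO6). In the other arm they received the red fluorescent protein DsRed, named DR in the labels (OKS + DsRed). Bulk RNA-seq gave 1 library for each arm at days 0, 1, 3, 5 and 7, 10 libraries in all. The cells of a library are a mixture, since neither sorting nor selection is described for them, and nothing says that the 5 libraries of an arm came from separate cultures. The tests over the days therefore describe these 2 time courses and not independent infections.

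Wnt proteins are secreted ligands that bind Frizzled receptors. With the co-receptors Lrp5 and Lrp6, a bound Frizzled leads to stable beta-catenin, which acts on target genes together with TCF and LEF factors. Wnt5a mainly signals without beta-catenin, through Frizzleds and the Ror kinases, and acts on cell polarity and movement. Secreted Frizzled-related proteins (Sfrps) carry a domain like that of the receptors and bind Wnts outside the cell. Dickkopf proteins (Dkks) bind Lrp co-receptors, although Dkk3 is a divergent member for which this is less clear. Fibroblasts are known to express several of these receptors and antagonists.

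The Frizzled genes Fzd1 (chr5:4753839-4758035, minus strand), Fzd2 (chr11:102604396-102608058, plus strand) and Fzd7 (chr1:59482424-59486955, plus strand) each have 1 exon and 1 transcript in GENCODE M21 on GRCm38. Their coding sequences were alike, with 78.9% identical bases between Fzd1 and Fzd2, 75.9% between Fzd1 and Fzd7 and 76.4% between Fzd2 and Fzd7. The stretch of 60 coding bases with the fewest differences among the 3 genes is shown because it is where their reads are hardest to tell apart. Capitals mark the 4 positions that differ.
Fzd1: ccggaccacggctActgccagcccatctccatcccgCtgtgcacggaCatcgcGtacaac
Fzd2: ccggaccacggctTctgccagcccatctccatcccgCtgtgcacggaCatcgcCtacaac
Fzd7: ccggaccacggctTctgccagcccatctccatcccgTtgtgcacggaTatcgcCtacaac
They lie at chr5:4757206-4757265, chr11:102604846-102604905 and chr1:59483089-59483148. In this stretch Fzd2 differed from each of the other genes at 2 positions, and Fzd1 and Fzd7 differed from each other at 4. No window of 60 bases from the transcripts of Fzd1, Fzd2, Fzd7, Ror1, Ror2, Dkk2 or Dkk3 was found, on either strand, in a transcript of another gene. The effective lengths of Fzd1 were 60.3 to 65.9 bases below its transcript length, which is about the length of these windows. Sfrp1 shared 0.0464% of its windows with other genes. Sfrp2 shared 11.1% with the antisense gene Gm26771, and Wnt5a shared 3.08% with the antisense gene Gm2670. These antisense genes had at most 1.14 and 3.30 expected counts in a library. Whether the counting used strand is not given in the sources used here.

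The libraries held 1208379 to 2225750 expected counts, with a median of 1601151. Expression is given as TPM, a transcript level scaled for length and depth. Foxo6 ranged from 0.61 to 2.29 TPM with DsRed, where no library had over 4 reads of it, and from 762.11 to 1356.41 TPM with FoxO6, so the labels of the arms held. In the day 0 libraries none of 14 fibroblast markers was at 0, while 7 of 8 pluripotency markers were at 0 in both arms. The summed TPM of the fibroblast markers went from 9520 at day 0 to 3170 at day 7 in OKS + DsRed and from 9180 to 3430 in OKS + FoxO6. The summed TPM of the 8 epithelial markers reached 673 and 163 at day 7, and that of the pluripotency markers 316 and 52.0. In bulk RNA, fewer cells of a type and less RNA per cell cannot be told apart, and this holds for every change below.

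By their mean TPM over the 10 libraries the members ranked in the order Wnt5a (26.2), Fzd1 (19.1), Dkk2 (18.9), Fzd7 (15.5), Sfrp2 (15.1), Ror2 (14.8), Fzd2 (13.5), Sfrp1 (13.4), Dkk3 (9.63) and Ror1 (0.519). TPM is scaled by transcript length, so these levels can be set side by side. The ranges of neighbours in this order overlapped throughout, so the order of neighbours from Wnt5a to Dkk3 is not resolved beyond the spread of the libraries. Wnt5a was above Dkk3 in each of the 10 libraries. Ror1 was below the other 9 members in each of the 10 libraries. The ranges of the arms overlapped for all 10 members. All members but Ror1, 9 in number, averaged 1 TPM or more, as did 15011 genes in all. The same 9 members passed the filter on low counts and were among the 11028 genes tested.

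**Figure D1:**
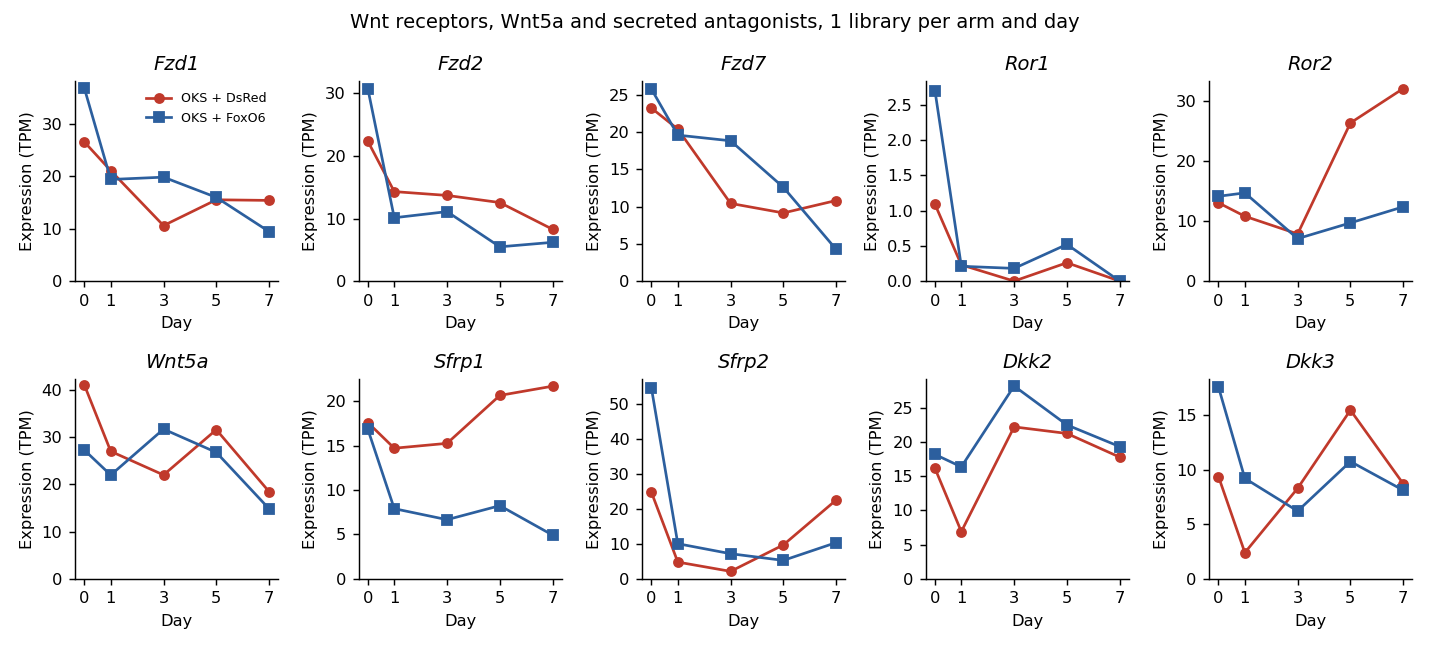
Expression in TPM (vertical axis, from 0) of each gene by day (horizontal axis), with 1 library per point, circles for OKS + DsRed and squares for OKS + FoxO6. Fzd1, Fzd2 and Fzd7 ended lower than they began in both arms, and Sfrp1 was lower in OKS + FoxO6 from day 1 on.

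The 3 Frizzled receptors fell over the days, with lower values at day 7 than at day 0 in both arms. In the order of days 0, 1, 3, 5 and 7, which is kept throughout, the TPM values of Fzd1 were 26.58, 21.09, 10.60, 15.53 and 15.41 with DsRed and 36.84, 19.41, 19.85, 15.99 and 9.45 with FoxO6. The TPM values of Fzd2 were 22.35, 14.31, 13.70, 12.56 and 8.28 with DsRed and 30.73, 10.13, 11.11, 5.48 and 6.20 with FoxO6. The TPM values of Fzd7 were 23.21, 20.39, 10.42, 9.14 and 10.81 with DsRed and 25.76, 19.58, 18.82, 12.58 and 4.25 with FoxO6. Day 0 held the highest value of each gene in each arm. A test of the 4 day terms in a fit to the counts of all 10 libraries, with the arm as a further term, asked whether a gene changed over the days on average over the arms (edgeR quasi-likelihood test, Benjamini-Hochberg adjustment over all genes tested). The fitted change from day 0 to day 7 was -1.31 on the log2 scale for Fzd1 (edgeR adjusted p = 0.036), -1.89 for Fzd2 (edgeR adjusted p = 0.0101) and -1.66 for Fzd7 (edgeR adjusted p = 0.04). These correspond to 0.404, 0.270 and 0.316 of the day 0 level. With Sfrp2, described below, 4 of the 9 tested members passed the day test, against 19.5% of all genes tested. In the fit all 4 were lower at day 7 than at day 0, and 9.49% of all genes tested passed with a lower level at day 7. The members were chosen with earlier results of these data known, so these counts are a description. An unadjusted p under 0.05 was reached by 7 members, and DESeq2 also called 4. The call for Fzd7 was also lost without both libraries of day 1 (edgeR adjusted p = 0.0588) and without those of day 5 (edgeR adjusted p = 0.0581). The fitted change of Fzd7 was -1.69 in each of these fits. Without both libraries of day 0 none of the members passed the test in edgeR, and Sfrp2 was then below the filter. The fibroblast markers moved with this fall, since 11 of 14 passed the day test and all 11 were lower at day 7, and their part in it was not tested.

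None of the 3 Frizzleds passed the test for a shift between the arms over all days. The fitted shift (OKS + FoxO6 minus OKS + DsRed, log2) was 0.10 with an SE of 0.20 for Fzd1, -0.35 with an SE of 0.23 for Fzd2 and 0.04 with an SE of 0.24 for Fzd7, with edgeR adjusted p of 0.793, 0.37 and 0.947. On single days some differences were beyond counting error. At day 3 the ratio of scaled counts, OKS + FoxO6 over OKS + DsRed, was 1.84 for Fzd1 (95% interval 1.21 to 2.87) and 1.78 for Fzd7 (1.18 to 2.73). At day 5 the ratio for Fzd2 was 0.419 (0.227 to 0.759). At day 7 the ratio for Fzd7 was 0.432 (0.232 to 0.766), from 17 and 47 reads. These intervals are exact binomial intervals and cover counting error only, since a day has 1 library in each arm. The ratio for Fzd1 at day 7 was 0.674 (0.432 to 1.04), within counting error. Fzd7 was higher in OKS + FoxO6 at day 3 and lower at day 7, beyond counting error on both days. The test for a change of the difference over the days passed for neither Fzd1 nor Fzd7 (edgeR adjusted p = 0.535 for Fzd1 and edgeR adjusted p = 0.654 for Fzd7).

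Among the other Frizzled genes, Fzd5 and Fzd6 passed the day test with a higher level at day 7. Fzd5 rose, with TPM values of 2.94, 8.68, 39.87, 46.34 and 24.87 with DsRed and 8.45, 13.51, 40.10, 58.93 and 29.76 with FoxO6. Its fitted change from day 0 to day 7 was 2.29 on the log2 scale (edgeR adjusted p = 0.000107), and that of Fzd6 was 1.26 (edgeR adjusted p = 0.0176). Fzd8 moved in the direction of the 3 members without passing, with TPM values of 20.27, 14.08, 15.02, 8.0 and 6.57 with DsRed and 14.64, 13.33, 11.56, 11.72 and 5.44 with FoxO6, and a fitted change of -1.49 (edgeR adjusted p = 0.0677). The fitted changes of Fzd3 and Fzd4 were -0.11 and -0.69 and did not pass. Fzd1, Fzd2 and Fzd7 together held 65.5% of the summed TPM of the 10 Frizzled genes at day 0 in OKS + DsRed, and 54.9%, 26.0%, 28.0% and 32.4% at days 1, 3, 5 and 7. In OKS + FoxO6 the share was 67.1%, 50.3%, 38.1%, 24.9% and 26.3% on these days. In both arms the share at day 7 was thus below that at day 1. The TPM of all Frizzled genes together was 110.0 at day 0 with DsRed and 106.0 at day 7, and with FoxO6 it was 139.0 and 75.7.

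**Figure D2:**
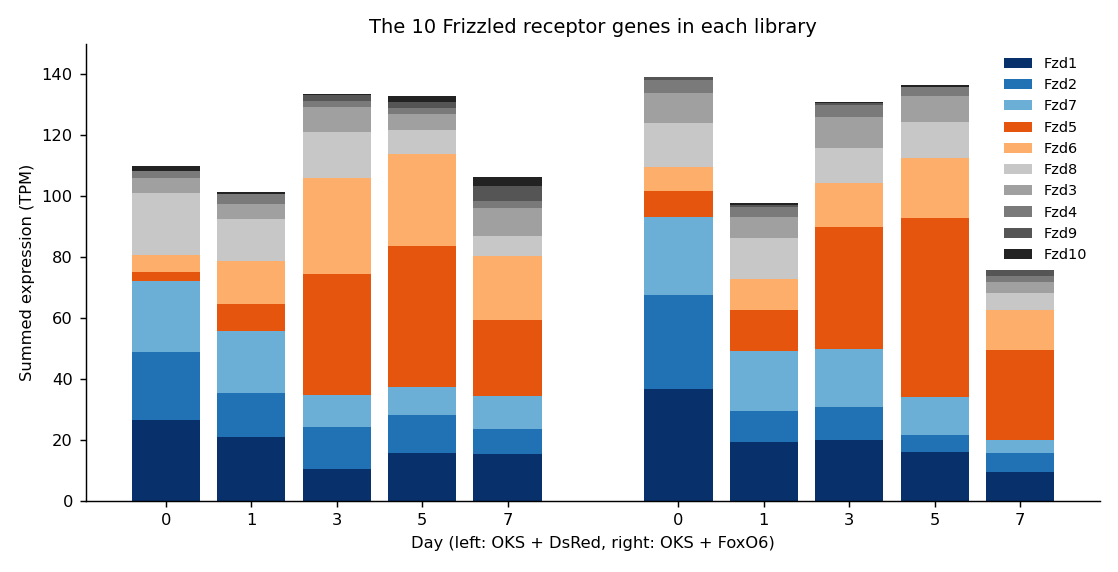
Summed expression in TPM (vertical axis) of the 10 Frizzled genes in each library, with days along the horizontal axis, OKS + DsRed on the left and OKS + FoxO6 on the right. The blue parts (Fzd1, Fzd2, Fzd7) made up 65.5% and 67.1% of the bar at day 0, and the dark orange part is Fzd5, which reached 46.34 and 58.93 at day 5.

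RefSeq promoters, taken here as the 250 bases before the RefSeq start of the gene (GRCm38.p6), were at hand for 6 members, namely Fzd1, Fzd7, Ror1, Ror2, Sfrp2 and Dkk2. Entries for Fzd2, Sfrp1, Dkk3 and Wnt5a were not matched. Each was searched on both strands for 1 string of letters for each of the transduced factors and for TCF. The strings were GTAAACA for FoxO factors, ATTTGCAT (the octamer) for Oct4, CNTTGTT for Sox factors, GGGTGTG for Klf factors and CTTTGAT for TCF factors. Among all 32851 promoters of this length, 3.17% held the FoxO string, 1.6% the octamer, 12.1% the Sox string, 6.93% the Klf string and 3.21% the TCF string. The 6 promoters held 3 matches in all. A match is a string of letters and no evidence of binding. The promoters of Fzd1 and Fzd7 are shown because these genes had the most alike courses among the members (Pearson's r of 0.897 over the 10 libraries, which share days and arms). Capitals mark matches. Fzd1 (chr5:4758217-4758466, minus strand) held none, and Fzd7 (chr1:59481897-59482146, plus strand) held the Sox string on the plus strand from -189 to -183 and on the minus strand from -130 to -124, counted from the RefSeq start. For Fzd1 and Fzd7 the RefSeq start lies upstream of the GENCODE start given above.
Fzd1: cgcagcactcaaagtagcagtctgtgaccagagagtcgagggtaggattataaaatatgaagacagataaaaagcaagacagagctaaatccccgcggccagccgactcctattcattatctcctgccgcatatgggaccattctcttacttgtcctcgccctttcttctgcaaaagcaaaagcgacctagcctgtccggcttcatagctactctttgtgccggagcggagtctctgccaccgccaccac
Fzd7: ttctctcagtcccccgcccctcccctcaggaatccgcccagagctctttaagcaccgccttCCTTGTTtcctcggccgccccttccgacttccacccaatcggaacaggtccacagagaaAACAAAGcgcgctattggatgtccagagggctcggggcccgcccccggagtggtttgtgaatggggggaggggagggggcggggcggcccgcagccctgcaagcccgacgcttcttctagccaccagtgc
The FoxO string was thus in neither window, and Fzd7 had 65.2% G and C bases against 51.2% for Fzd1.

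The Ror kinases, which serve as Wnt5a receptors, differed from each other in level and course. Ror1 (chr4:100095791-100444765, plus strand) was near the limit of detection, with 28 reads in all 10 libraries. Its reads were 4, 1, 0, 1 and 0 with DsRed and 17, 1, 1, 3 and 0 with FoxO6. Day 0 of OKS + FoxO6 held most of these reads. In that arm the ratio of scaled counts, day 7 over day 0, was 0 with an exact 95% upper limit of 0.336 (0 reads against 17). Between the arms at day 0 the ratio of scaled counts for Ror1 was 2.26 with a 95% interval of 0.736 to 9.22, so a difference was not detectable at this depth.

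Ror2 (chr13:53109312-53286124, minus strand) was higher at days 5 and 7 than before in OKS + DsRed and was not in OKS + FoxO6. Its TPM values were 13.02, 10.78, 7.84, 26.30 and 32.02 with DsRed and 14.10, 14.67, 7.06, 9.68 and 12.35 with FoxO6. The arms were alike up to day 3 and apart at days 5 and 7. The ratio of scaled counts was 0.982 at day 0 (95% interval 0.633 to 1.55), 0.349 at day 5 (0.226 to 0.531) and 0.424 at day 7 (0.292 to 0.605). Within OKS + DsRed the scaled count at day 7 was 2.26 times that at day 0 (1.53 to 3.44), and within OKS + FoxO6 it was 0.978 times (0.646 to 1.47). Ror2 did not pass the test for a shift over all days, with a shift of -0.56 and an SE of 0.28 (edgeR adjusted p = 0.227). The shift was -0.29 without both libraries of day 5 and -0.36 without those of day 7. With another day left out it was -0.75 to -0.64, and it passed in none of these fits. The slope of the difference over the days was -0.24 log2 units per day with an SE of 0.07, an unadjusted p of 0.00566 and an edgeR adjusted p of 0.11, so the change of the difference did not pass the adjustment over all genes, and with no filter on low counts it did (edgeR adjusted p = 0.0364). The gene whose course was most like that of Ror2 was Igfbp2, an IGF binding protein (Pearson's r of 0.953 over the 10 libraries, among 11491 genes that averaged 5 TPM or more).

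Wnt5a (chr14:28504750-28527448, plus strand), the ligand, was lower at day 7 than at day 0 in both arms. Its TPM values were 41.02, 26.97, 21.97, 31.55 and 18.43 with DsRed and 27.24, 21.95, 31.67, 26.75 and 14.81 with FoxO6. The highest library was day 0 of OKS + DsRed and the lowest was day 7 of OKS + FoxO6. The fitted change from day 0 to day 7 was -0.93 on the log2 scale, and the day test fell short of the threshold (edgeR adjusted p = 0.0631). With no filter on low counts it passed, with a change of -0.95 (edgeR adjusted p = 0.0326). The shift between the arms was -0.27 with an SE of 0.14 (edgeR adjusted p = 0.249). At day 0 the ratio of scaled counts was 0.676 (95% interval 0.521 to 0.881), and at day 7 it was 0.958 (0.672 to 1.36). Wnt5a has 6 transcripts, and the effective length that RSEM gave it ranged from 3332.1 to 5551.0 bases. At day 3 the difference in log2(TPM + 1) was therefore 0.51 while the ratio of scaled counts was 1.02.

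Sfrp1 (chr8:23411502-23449632, plus strand), a secreted antagonist that binds Wnts, was the member that passed the test between the arms. Its TPM values were 17.60, 14.71, 15.26, 20.66 and 21.70 with DsRed and 16.83, 7.90, 6.66, 8.24 and 4.92 with FoxO6. The arms were close at day 0, and from day 1 on every library of OKS + FoxO6 lay below every library of OKS + DsRed. In reads, these were 49, 48, 48, 61 and 91 against 80, 28, 28, 36 and 19. The ratio of scaled counts, OKS + FoxO6 over OKS + DsRed, was 0.867 at day 0 (95% interval 0.60 to 1.26), 0.529 at day 1 (0.320 to 0.861), 0.430 at day 3 (0.260 to 0.699), 0.384 at day 5 (0.247 to 0.588) and 0.249 at day 7 (0.143 to 0.412). At day 7 the scaled count was thus 4.01-fold lower with FoxO6. The shift over all days was -1.11 on the log2 scale with an SE of 0.24 (edgeR adjusted p = 0.0124), or 2.16-fold lower, and Sfrp1 was lower on 5 of 5 days. It was 1 of 9 tested members to pass, against 13.9% of all genes tested, and 7.05% of all genes tested passed with a lower level in OKS + FoxO6. At these shares the count of members is close to that of genes at large.

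The call for Sfrp1 held in 9 of 12 alternatives, with shifts from -1.37 to -0.90. It was lost without both libraries of day 3 (-1.08, edgeR adjusted p = 0.0554), without those of day 5 (-1.03, edgeR adjusted p = 0.0664) and without a day term (-1.03, edgeR adjusted p = 0.119). DESeq2 gave a shift of -1.14 with an adjusted p of 0.00337. The slope of the difference between the arms was -0.22 log2 units per day with an SE of 0.07 (unadjusted p of 0.0053, edgeR adjusted p = 0.107), which did not pass. Over both arms the day test did not pass for Sfrp1 (edgeR adjusted p = 0.308). Within OKS + FoxO6 the scaled count at day 7 was 0.330 times that at day 0 (95% interval 0.189 to 0.549), and within OKS + DsRed it was 1.15 times (0.802 to 1.66). The summed fibroblast markers were lower with FoxO6 at day 1 (5370 against 7540) and not at day 7 (3430 against 3170). Of the 14 markers 4 passed the shift test with a higher level with FoxO6 and 2 with a lower level. The summed epithelial markers and the summed pluripotency markers were each lower with FoxO6 on 5 of 5 days. For pluripotency the sums at days 0, 1 and 3 were near the floor, with 4 to 7 of the 8 markers at 0. They were 5.55, 1.31 and 6.41 with DsRed and 0.71, 1.1 and 3.94 with FoxO6. No pluripotency marker passed the filter on low counts. Of the other cell types listed, the 6 endothelial markers summed to 20.9 to 54.8 TPM with DsRed and 32.1 to 143 with FoxO6, the 6 neural markers to 104 to 176 and 40.7 to 93.3, and the 8 macrophage markers to 17.2 to 59.0 and 18.0 to 32.6. The part of these markers in the difference was not tested. The courses most like that of Sfrp1 were those of Fam84b (Pearson's r of 0.958), Pfkfb3, an enzyme that controls glycolysis (0.952), and Scd1, a fatty acid desaturase (0.946).

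**Figure D3:**
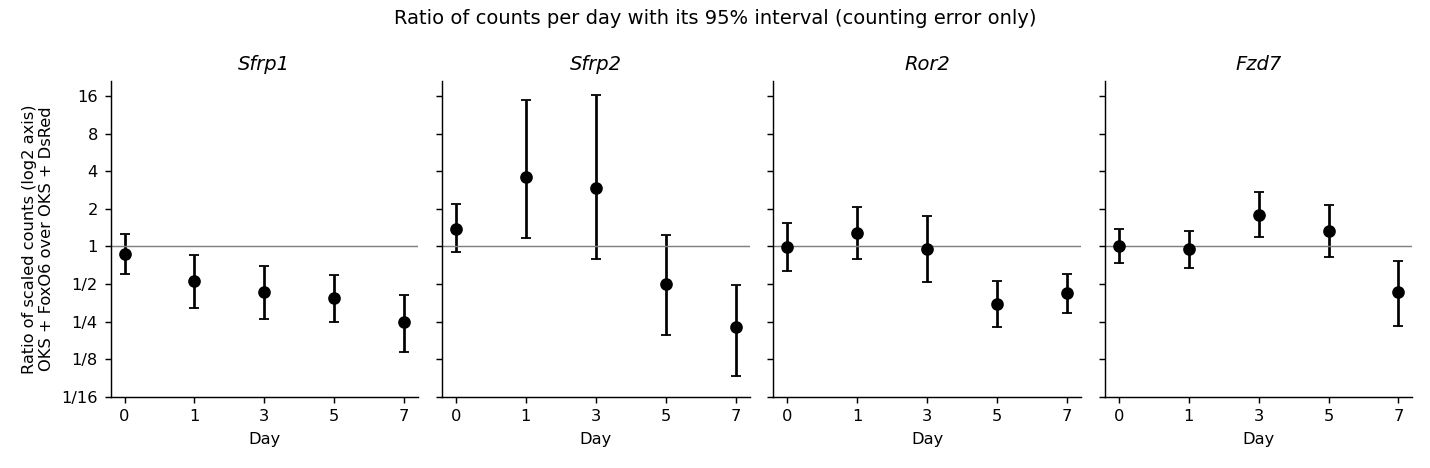
Ratio of scaled counts, OKS + FoxO6 over OKS + DsRed (vertical axis, log2 scale), by day (horizontal axis) for Sfrp1, Sfrp2, Ror2 and Fzd7. Points are the ratio of 2 libraries and bars its 95% interval for counting error. Sfrp1 goes from 0.867 at day 0 to 0.249 at day 7, and the other 3 genes are at or above 1 on some days and below it at day 7.

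Sfrp2 (chr3:83766321-83774316, plus strand), a close relative of Sfrp1 with 58.2% identical coding bases, fell steeply after day 0 and came back in OKS + DsRed. Its TPM values were 24.72, 4.77, 2.12, 9.67 and 22.49 with DsRed and 54.49, 10.02, 7.16, 5.25 and 10.33 with FoxO6. Day 0 was the highest library of each arm. The effective length of Sfrp2, which has 3 transcripts, ranged from 865.2 to 1942.6 bases, a 2.245-fold spread, so TPM and counts gave different pictures. As scaled counts (CPM) the values were 27.0, 2.63, 2.03, 9.37 and 22.8 with DsRed and 37.4, 9.54, 5.97, 4.74 and 5.13 with FoxO6. On this scale the return at day 7 is seen in OKS + DsRed alone. The ratio of scaled counts was 1.39 at day 0 (95% interval 0.907 to 2.17), although TPM differed by 1.11 in log2(TPM + 1), with an effective length of 1347 bases in OKS + FoxO6 against 1942. The ratio was 3.63 at day 1 (1.17 to 14.9), 2.95 at day 3 (0.795 to 16.3), 0.500 at day 5 (0.196 to 1.23) and 0.227 at day 7 (0.0922 to 0.490). The libraries of OKS + DsRed at days 1 and 3 held only 4 and 3 reads of Sfrp2, and those of OKS + FoxO6 at days 5 and 7 held 10 and 8.

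For Sfrp2 the day test passed (edgeR adjusted p = 0.043), with a range of 2.93 log2 units between the highest and lowest day of the fit. It did not pass with library totals, with an offset for length, or without both libraries of day 3, where the edgeR adjusted p was at most 0.065. The range was 2.86, 2.87 and 2.38 log2 units in these fits. The shift between the arms was -0.05 with an SE of 0.48 (edgeR adjusted p = 0.964), and the arms changed places between day 3 and day 5. It was 0.52 without both libraries of day 7 and -0.34 without those of day 1, and did not pass in either case (edgeR adjusted p = 0.452 and 0.737). The slope of the difference was -0.40 log2 units per day with an SE of 0.12 (unadjusted p of 0.00606, edgeR adjusted p = 0.113, and 0.0103 with no filter on low counts). Of the summed TPM of Sfrp1 and Sfrp2, Sfrp1 held 41.6%, 75.5%, 87.8%, 68.1% and 49.1% with DsRed and 23.6%, 44.1%, 48.2%, 61.1% and 32.3% with FoxO6. These shares rest on the TPM of Sfrp2 and so on its effective length, which was 865 bases at day 7 with FoxO6, where Sfrp1 had 19 reads and Sfrp2 had 8. The 250 bases before the RefSeq start of Sfrp2 (chr3:83766071-83766320, plus strand) are shown because they hold the octamer, the string searched for Oct4, which was in 1.6% of all promoters. It lies on the plus strand from -47 to -40 and is marked by capitals.
Sfrp2: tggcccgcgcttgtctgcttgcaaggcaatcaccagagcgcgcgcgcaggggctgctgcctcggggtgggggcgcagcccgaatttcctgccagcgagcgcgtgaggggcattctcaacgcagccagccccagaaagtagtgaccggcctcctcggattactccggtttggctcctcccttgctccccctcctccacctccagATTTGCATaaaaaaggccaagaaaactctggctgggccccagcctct
Both arms received Oct4, and no binding was measured here.

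The Dickkopf genes were past 2-fold between the arms at day 1 alone, and with the filter on low counts neither passed a test over the days. The TPM values of Dkk2 (chr3:132085292-132180304, plus strand) were 16.15, 6.89, 22.19, 21.23 and 17.77 with DsRed and 18.17, 16.35, 28.16, 22.48 and 19.31 with FoxO6. It was higher with FoxO6 on 5 of 5 days, but beyond counting error at day 1 alone, where the ratio of scaled counts was 2.34 (95% interval 1.35 to 4.21). The lowest library was day 1 of OKS + DsRed. The shift over the days was 0.33 with an SE of 0.19 and did not pass (edgeR adjusted p = 0.308). The TPM values of Dkk3 (chr7:112116017-112159057, minus strand) were 9.39, 2.40, 8.31, 15.49 and 8.73 with DsRed and 17.61, 9.22, 6.22, 10.77 and 8.13 with FoxO6. At day 0 its ratio was 1.70 (1.01 to 2.96). At day 1 it was 3.78 (1.51 to 11.3), from 25 reads against 6, and at day 7 it was 1.02 (0.568 to 1.83). Its shift was 0.22 with an SE of 0.32 (edgeR adjusted p = 0.711). Without both libraries of day 1 the shifts were 0.18 for Dkk2 and -0.03 for Dkk3. The test for a change of the difference over the days gave an edgeR adjusted p of 0.787 for Dkk2 and 0.333 for Dkk3. Day 1 of OKS + DsRed was the lowest library for both Dkk2 and Dkk3. Neither gene passed the day test (edgeR adjusted p = 0.138 for Dkk2 and 0.246 for Dkk3), but with no filter on low counts Dkk3 did (edgeR adjusted p = 0.0355).

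**Figure D4:**
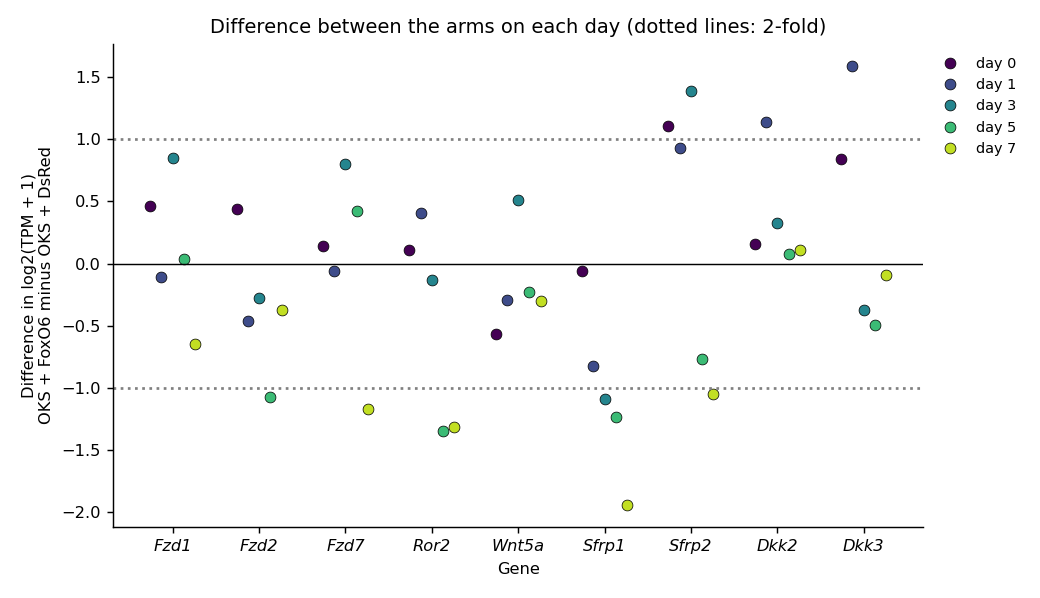
Difference in log2(TPM + 1), OKS + FoxO6 minus OKS + DsRed (vertical axis), for the 9 members that averaged 1 TPM or more (horizontal axis), with 1 point per day from dark (day 0) to light (day 7) and dotted lines at 2-fold. Sfrp1 goes from -0.06 at day 0 to -1.94 at day 7, and all points past 2-fold at days 5 and 7 lie below 0.

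Counted day by day with the 2-fold threshold of the study, applied here to log2(TPM + 1), the members past it were all higher with FoxO6 at days 0 and 1 and all lower at days 5 and 7. At day 0, 1 of the 9 members above the TPM minimum was higher (Sfrp2, against 10.6% of the 15011 genes) and 0 were lower (6.41% of genes). On counts with TMM normalization 0 members were past 2-fold at day 0. At day 1, 2 members were higher (Dkk2 and Dkk3, against 8.1% of genes) and 0 were lower (9.43%). With a pseudocount of 0.1, and on counts with TMM, Sfrp2 was also past 2-fold at day 1, for 3 members in all. At day 3, 1 was higher (Sfrp2, 8.21% of genes) and 1 was lower (Sfrp1, 11.8%). At day 5, 0 were higher (10.3% of genes) and 3 were lower (Fzd2, Ror2 and Sfrp1, 11.4%). At day 7, 0 were higher (8.3% of genes) and 4 were lower (Fzd7, Ror2, Sfrp1 and Sfrp2, 16.5%). With the trend of the difference with transcript length subtracted, 2 were lower at day 7 (Sfrp1 and Sfrp2). The median difference of the 9 members was 0.16, -0.06, 0.33, -0.49 and -0.65 at days 0, 1, 3, 5 and 7, and that of the 15011 genes was 0.09, 0, 0, 0 and -0.14. These medians are without the subtraction of the length trend. At day 7 that subtraction took Fzd1 from -0.65 to -0.3 and Wnt5a from -0.3 to 0.08. Sfrp2 alone became lower, from -1.05 to -1.09. With 1 library per arm and day these counts have no replicate check.

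The step from day 0 to day 1 held much of the change of some members. The part of the change of medium in this step was not tested. The scaled count of Sfrp2 at day 1 was 0.0973 times that at day 0 with DsRed (95% interval 0.025 to 0.275) and 0.255 times with FoxO6 (0.139 to 0.439). For Fzd2 the ratio was 0.566 (0.364 to 0.874) with DsRed and 0.317 (0.205 to 0.476) with FoxO6, and for Fzd1 it was 0.701 (0.494 to 0.995) and 0.507 (0.375 to 0.677). For Dkk3 it was 0.226 (0.0744 to 0.584) and 0.504 (0.304 to 0.811). For Fzd7 it was 0.777 (0.547 to 1.10) and 0.731 (0.540 to 0.984). Among these genes the ratio was lowest for Sfrp2 in both arms. Dkk2 was at 0.377 of its day 0 count (0.205 to 0.671) with DsRed and at 0.865 (0.590 to 1.26) with FoxO6, while Sfrp1 was at 0.739 (0.486 to 1.12) and 0.451 (0.282 to 0.702). Ror2 and Wnt5a had intervals that took in 1 in both arms.

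From day 0 to day 7 the arms gave different counts. In OKS + DsRed 3 of the 9 members were lower by over 2-fold in TPM (Fzd2, Fzd7 and Wnt5a, against 11.4% of genes) and 1 was higher by over 2-fold (Ror2, 21.0% of genes). In OKS + FoxO6 6 were lower by over 2-fold (Fzd1, Fzd2, Fzd7, Sfrp1, Sfrp2 and Dkk3, 17.0% of genes) and 0 were higher (14.4% of genes). Dkk3 was not past 2-fold on counts with TMM or with the length trend subtracted, which left 5 lower. The scaled count at day 7 over day 0 was 0.227 for Fzd2 (95% interval 0.134 to 0.367), 0.186 for Fzd7 (0.105 to 0.309) and 0.137 for Sfrp2 (0.0572 to 0.283) in OKS + FoxO6. In OKS + DsRed it was 0.344 for Fzd2 (0.211 to 0.553), 0.433 for Fzd7 (0.292 to 0.638) and 0.837 for Sfrp2 (0.514 to 1.38). The median change of the members was -0.13 in OKS + DsRed and -1.59 in OKS + FoxO6, and that of the 15011 genes was 0.12 and -0.07. These changes rest on 1 library at each end. In TPM, day 0 of OKS + FoxO6 was the highest library for Fzd1, Fzd2, Fzd7, Sfrp2 and Dkk3. Day 7 of OKS + FoxO6 was the lowest for Wnt5a, Fzd1, Fzd7 and Sfrp1. Whether the difference between the arms changed with the day was tested for each gene. None of the 9 members passed in edgeR, against 1.93% of all genes tested, and an unadjusted p under 0.05 was reached by 3 members (Ror2, Sfrp1 and Sfrp2). With no filter on low counts edgeR called Ror2 (adjusted p = 0.0364) and Sfrp2 (adjusted p = 0.0103). DESeq2 called 0 of the 7 members to which it gave an adjusted p, with 3 of the 9 at an unadjusted p under 0.05, and gave none to Sfrp2 and Dkk3.

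Of 76 further genes of the pathway, listed by role, 37 passed the filter on low counts. Among them 2 passed the shift test with a higher level in OKS + FoxO6 and 4 with a lower level, against 6.86% and 7.05% of all genes tested and 13.9% in either direction. The higher genes were Wls, which carries Wnts to the cell surface (0.82, SE 0.18, edgeR adjusted p = 0.0123), and Kremen1, a Dkk receptor (0.53, SE 0.14, edgeR adjusted p = 0.0313). The lower genes were Lgr6, an R-spondin receptor (-3.08, SE 0.26), the polarity cadherins Celsr1 (-1.28, SE 0.32) and Celsr2 (-1.12, SE 0.18), and Notum, which removes the lipid that Wnts need (-1.13, SE 0.34, edgeR adjusted p = 0.0498). The day test was passed by 13 of the 37, and all 13 were higher at day 7, the opposite direction to the 4 members that passed. Of all genes tested 19.5% passed, and 10% passed with a higher level at day 7. The 13 genes were Fzd5, Fzd6, Ptk7, Notum, Kremen1, Apcdd1, Lgr4, Lgr6, Porcn, Prickle1, Vangl2, Celsr1 and Celsr2. Members and lists were chosen with earlier results of these data known, so the contrast in direction is a description and not a test. The median fitted change from day 0 to day 7 was 0.19 over the 37 genes, -0.93 over the 9 members and 0.03 over all genes tested. The median shift was -0.09, -0.05 and -0.02.

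**Figure D5:**
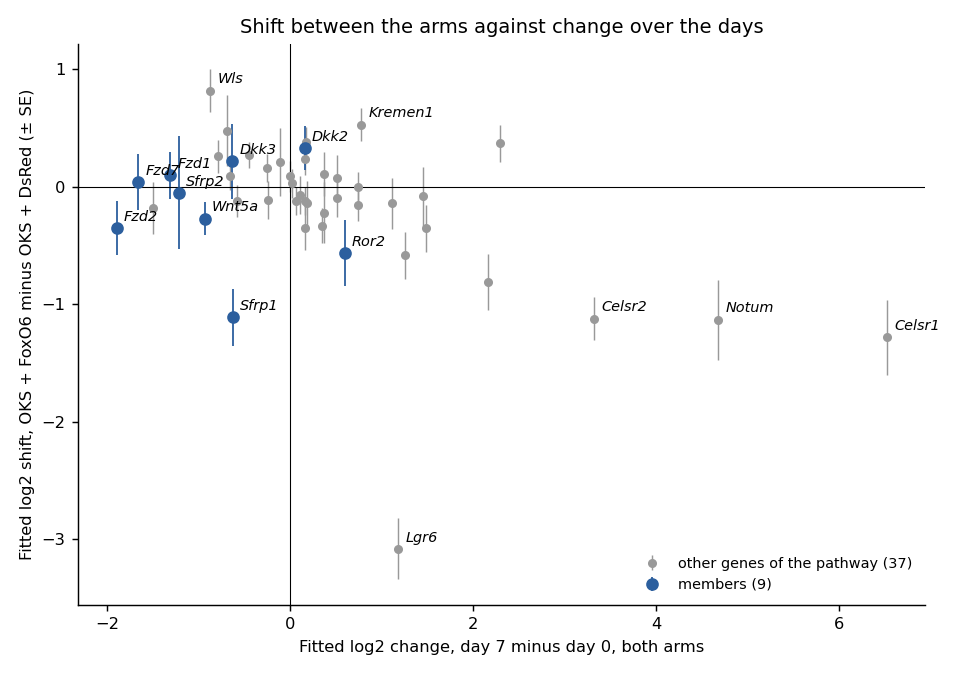
Fitted log2 change from day 0 to day 7 in both arms (horizontal axis) against the fitted log2 shift, OKS + FoxO6 minus OKS + DsRed (vertical axis, bars are ± SE), for the 9 tested members (large points) and 37 other genes of the pathway (small points, named where the shift passed). Sfrp1 lies at -1.11 on the vertical axis, and Fzd1, Fzd2, Fzd7 and Sfrp2 lie left of -1 on the horizontal axis.

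By role, 9 of 12 other receptors and co-receptors were tested, and 3 passed the day test with a higher level at day 7 while none passed the shift test. The co-receptors Lrp5 and Lrp6 had shifts of -0.12 and -0.14 (edgeR adjusted p = 0.634 and 0.692). Of the 20 genes of the intracellular relay 19 were tested, and Ctnnb1, which encodes beta-catenin, had a shift of 0.03 with an SE of 0.12 (edgeR adjusted p = 0.891). None of the 18 other Wnt ligands passed the filter on low counts, and 6 of them averaged 1 TPM or more. Wnt11 (mean TPM 8.07) and Wnt16 (6.50) were the ligands with the highest levels after Wnt5a (26.2). The TPM values of Wnt11 were 8.49, 7.27, 8.76, 2.46 and 3.07 with DsRed and 29.71, 14.35, 3.47, 2.28 and 0.84 with FoxO6. Wnt5a was above each other Wnt gene in mean TPM, while at day 0 with FoxO6 Wnt11 was at 29.71 and Wnt5a at 27.24. Wnt11 had 91 reads over the 10 libraries against 956 for Wnt5a, so their order in that library is not resolved.

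The genes whose courses were most like those of the members are given as a description, by Pearson's r of log2(TPM + 1) over the 10 libraries. They were Ulbp1, Fbxw8 and Vcl (vinculin, an adhesion protein) for Fzd1, with r of 0.970, 0.958 and 0.949. For Fzd2 they were Sertad4, Map1a and Glipr2 (0.952, 0.948 and 0.944). For Fzd7 they were Kpna4, a nuclear import receptor, Rab23 and Zfp28 (0.986, 0.980 and 0.970). After Igfbp2, the courses nearest to Ror2 were those of Noct and Ick (0.900 and 0.899). For Sfrp2 they were Wdr12, Wdr77 and Trmt61a (0.930, 0.921 and 0.914), and for Wnt5a they were Pofut1, Siah2 and Usp39 (0.899, 0.883 and 0.872). For Dkk2 they included Ccdc82 and Slmapos2 (0.947 and 0.919), and for Dkk3 they were Gm4673, Prx and Gemin4 (0.905, 0.854 and 0.848). No member was among the 3 nearest genes of another. Between members, r was 0.747 for Fzd1 and Fzd2, 0.681 for Fzd2 and Fzd7, 0.620 for Dkk2 and Dkk3, 0.318 for Sfrp1 and Sfrp2 and -0.163 for Ror2 and Wnt5a.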

How the data were processed

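RNA-seq of MEFs in 2 arms at 5 days was used, with 1 library per arm and day and groups taken from the sample labels. Alignment and quantification by the authors used Bowtie2 and RSEM on the GENCODE M13 transcripts (mm10), and tool versions are not given in the sources used here. The deposited expected counts are RSEM estimates per gene without normalization, and the deposited TPM values were scaled by RSEM for effective length and depth. The labels name a VAHTS kit for the libraries and the methods name a TruSeq kit. All 484760 expected counts of the series table equal those per library. The 2124 genes found only per library held at most 0.312% of the counts.

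The members and lists were chosen with earlier results of these data known. The text names all 10 members and, from each list of the pathway, the genes that passed a test or, where none did, the 2 with the highest mean TPM, and for each member the 3 genes of most like course. For Dkk2 1 of these genes is not reported here. Fzd3, Fzd4, Fzd8, Lrp5, Lrp6 and Ctnnb1 were named after their values were seen.

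Expected counts were rounded and fitted in R 4.3.3 with edgeR 4.0.16 (TMM, filterByExpr, quasi-likelihood, day as a factor and arm, 4 residual degrees of freedom), with an adjusted p under 0.05 as the threshold. The interaction of arm with day number had 3. DESeq2 1.42.0 was an alternative, and the fits were tested on simulated data. Differences per day used log2(TPM + 1), which understates changes of low genes. Scaled counts are counts per TMM-scaled library total, and their 95% intervals are exact binomial. Python 3.11.15 with pandas 2.3.3, scipy 1.17.1 and matplotlib 3.10.9 was used. Positions are from GENCODE M21 on GRCm38, coding sequences were aligned with MAFFT, and promoters are from RefSeq. Other alternatives were size factors, library totals, filters, a length offset, no day term, days as ranks, each day left out, a pseudocount of 0.1 and CPM.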

Additional observations from a re-analysis of the deposited data

Results flagged for a closer look

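Among the 37 tested genes of the pathway lists, the difference between the arms changed with the day for 2 genes that are not members (edgeR, interaction of arm with day number), against 1.93% of all genes tested. Apcdd1, a membrane protein that inhibits Wnt signalling, had a slope of -0.24 log2 units per day with an SE of 0.06 (edgeR adjusted p = 0.0496). Its difference in log2(TPM + 1), OKS + FoxO6 minus OKS + DsRed, was 0.51 at day 0 and -1.53 at day 7. Wls, the carrier of secreted Wnts, had a slope of 0.18 with an SE of 0.04 (edgeR adjusted p = 0.0418), and its difference went from 0.56 at day 0 to 1.29 at day 7. None of the members passed this test in edgeR with the filter on low counts, with 3 at an unadjusted p under 0.05, and 2 passed with no filter (Ror2, edgeR adjusted p = 0.0364, and Sfrp2, edgeR adjusted p = 0.0103). DESeq2 called 0 of the 7 members to which it gave an adjusted p, and gave none to Sfrp2 and Dkk3.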

How the results depend on the processing

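For the members, the shift between the arms was called for 1 gene, and for 0 without a day term and for 0 to 1 with each day left out in turn. The day test called 4 members, and 7 with no filter on low counts (also Dkk3, Ror2 and Wnt5a). It called 0 to 4 with each day left out, with 0 without day 0. The interaction test called 0 members and 2 (Ror2 and Sfrp2) with no filter. The count past 2-fold at day 0 went from 1 to 0 on CPM, and at day 7 from 4 to 2 with the length trend subtracted. From day 0 to day 7 in OKS + FoxO6 it was 6, and 5 on CPM or with the length trend subtracted. Sfrp1 was lower in OKS + FoxO6 under all 12 alternatives run for the shift. The cause of these changes was not tested.

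Over all genes the shift test called 1535, and 169 without a day term, 710 without day 3 and 655 without day 5. The day test called 2151, and 3804 with no filter and 1057 without day 0. The interaction test called 213, and 648 with no filter, 136 with DESeq2, 112 without day 0, 125 without day 1 and 76 without day 7. The fits with day as a factor compare the arms within each day, and the labels give no further replicate numbers. Members had 28 to 956 reads over the 10 libraries, so single-day ratios of Ror1, Sfrp2 and Dkk3 rest on few reads.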

Other observations

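At days 0, 1, 3, 5 and 7, Lgr6, a receptor for R-spondins, had TPM values of 15.92, 30.52, 49.94, 69.36 and 67.13 with DsRed and 5.35, 4.52, 3.41, 8.50 and 5.23 with FoxO6. The arms did not overlap, and the shift of -3.08 had an edgeR adjusted p of 7.52e-05. Wls had TPM values of 176.35, 223.61, 155.77, 102.95 and 67.66 with DsRed and 261.09, 259.63, 290.53, 267.12 and 166.83 with FoxO6. It was higher with FoxO6 on each day. Notum, which is both an inhibitor and a known target of Wnt signalling, had TPM values of 2.26, 6.14, 53.58, 125.37 and 183.66 with DsRed and 6.57, 1.59, 18.55, 32.40 and 122.26 with FoxO6. It was higher with FoxO6 at day 0 and lower on the other days.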
